A study of Mus musculus with 8 samples.

Results

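Small nucleolar RNA (snoRNA) host genes are transcribed for what lies in their introns. The 8 genes described here are Gas5, Snhg1, Snhg3, Snhg5, Snhg6, Snhg8, Snhg9 and Snhg12. They were looked up by symbol among 23284 gene entries, and all 8 were found. The set was chosen by the measured responses of Snhg9 to doxycycline, which differ between the cell lines, so those responses are given as a description with no test of their difference. RNA sequencing had been done on mouse embryonic stem cells of mixed strain. Clone 6 carries a doxycycline-inducible transgene for Ctcfl, which encodes the testis-enriched relative of Ctcf, and is called the transgenic line. Clone 7 lacks the transgene and is called the non-transgenic line. Each line was taken off its embryonic fibroblast feeder cells and kept for 48 h with doxycycline at 2 µg/ml (treated) or without it (untreated), which gives 4 groups. Each group has 2 libraries, 1 from each of 2 experiments, and the labels call them biological replicates. Each line is a single clone, so clone and transgene cannot be told apart in a comparison of the lines.

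A host gene is transcribed and spliced like a messenger RNA gene, and the snoRNA is trimmed from the excised intron. Box C/D snoRNAs guide ribose methylation and box H/ACA snoRNAs guide pseudouridylation, mostly of ribosomal RNA in the nucleolus. The spliced exons of noncoding hosts carry no long reading frame, and many of them are degraded by nonsense-mediated decay when they reach ribosomes. Many hosts start with a run of pyrimidines, as the messenger RNAs of ribosomal proteins do. Gas5 was named for its accumulation in growth-arrested cells.

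The start sites of 7 of the 8 genes could be read from the RefSeq promoter table (build GRCm38.p6, the assembly behind mm10), each at the deposited edge of the gene. The windows are shown because they hold features that most of these genes share. Each runs 5′ to 3′ from 45 bases before the start to 15 bases from the start on. Capitals mark the first TATA (or its longer form) before the start, and the longest run of pyrimidines between 5 bases before and 15 bases after it.
Gas5: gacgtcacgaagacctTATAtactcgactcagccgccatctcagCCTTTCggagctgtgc
Snhg1: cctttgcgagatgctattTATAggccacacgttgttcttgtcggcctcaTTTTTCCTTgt
Snhg3: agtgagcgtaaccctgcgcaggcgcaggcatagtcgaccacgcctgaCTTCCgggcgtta
Snhg5: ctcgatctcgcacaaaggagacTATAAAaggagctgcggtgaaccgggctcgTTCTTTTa
Snhg8: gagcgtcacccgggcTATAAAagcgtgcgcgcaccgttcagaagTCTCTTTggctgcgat
Snhg9: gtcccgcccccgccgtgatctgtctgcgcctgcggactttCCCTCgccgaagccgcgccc
Snhg12: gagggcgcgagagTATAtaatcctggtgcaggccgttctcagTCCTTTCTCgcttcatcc

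The windows lie at chr1:161035121-161035180 (plus strand, Gas5), chr19:8723442-8723501 (plus, Snhg1), chr4:132353672-132353731 (minus, Snhg3) and chr9:88522883-88522942 (minus, Snhg5). The others lie at chr3:123508322-123508381 (minus, Snhg8), chr17:24719951-24720010 (minus, Snhg9) and chr4:132308633-132308692 (plus, Snhg12). The letters TATA on the gene's strand stood in the 45 bases before the start in 5 of the 7, against 8.38% of 32851 promoters in the table. The longer TATAAA, which contains TATA, stood there in 2 of the 7 against 2.45%. Snhg9 has neither before its annotated start. A run of 5 or more pyrimidines near the start was present in all 7 windows against 33.6% of all promoters. Within these limits it was longest in Snhg1 and Snhg12, at 9 bases. It covered the start base in Gas5, Snhg8 and Snhg12, and began downstream of it in Snhg1, Snhg3 and Snhg5. The 5 marked bases of Snhg9 belong to a run of 9 that begins further upstream and ends just before the annotated start. Over the whole 300 bases of the table and both strands, CACGTG was found in Snhg9 alone of the 7 (7.15% of all promoters). The letters TGACGTCA were found in Gas5 alone (1.79%). CCAAT was found in 3 of the 7 (37.4% of all promoters), TTCCGG in 3 (14.9%) and GGGCGG in 5 (35.7%). These matches describe letters and show no binding.

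Snhg9 was the shortest of the 8 genes. Its locus spans 435 bases on the minus strand of chromosome 17 (chr17:24719531-24719965). Its 2 exons of 106 and 77 bases are separated by the intron that holds the H/ACA snoRNA gene Snora78 (chr17:24719676-24719803 in GENCODE). The spliced RNA of the GENCODE M21 annotation is 183 bases long and is shown because the level of Snhg9 is a read density over so few bases. The second exon is in capitals.
Snhg9: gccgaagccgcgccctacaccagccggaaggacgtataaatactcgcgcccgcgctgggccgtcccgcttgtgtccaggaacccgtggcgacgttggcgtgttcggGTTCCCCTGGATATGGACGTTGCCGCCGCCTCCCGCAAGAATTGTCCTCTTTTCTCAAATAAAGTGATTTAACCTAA

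The longer of the TATA words searched for above occurs 1 time in this RNA, from base 35 of the first exon. For the other 7 genes the longest spliced form ran from 581 bases in Snhg3 to 2728 bases in Snhg1. Their shortest spliced forms ran from 312 bases in Snhg1 to 448 bases in Snhg8. GENCODE classes Snhg9 as antisense, and in RefSeq's GRCm38.p6 models the ribosomal protein gene Rps2 (chr17:24718121-24721927, on the other strand) spans it. In the deposited table Rps2 begins 97 bases beyond Snhg9. No source used here states the strand setting of the counting, so reads of Rps2 that fall on Snhg9 cannot be told apart from Snhg9 reads. Rps2 was at between 68.5 and 144 times the FPKM of Snhg9.

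Levels are the authors' FPKM, which scales fragment numbers by transcript length and by the mapped total. Both libraries of a group share a single FPKM per gene, so the levels carry no SD, and library depth is unknown. The FPKM of all entries summed to between 717813 and 737443 per group. Ctcfl, the targeted gene, was at 0.995 FPKM in treated and 0.403 FPKM in untreated transgenic cells and at 0.498 and 0.513 FPKM in treated and untreated non-transgenic cells. It was not called with treatment in the transgenic line (p = 0.0062 and q = 0.296 in the authors' deposited table), and whether transgene reads count toward this entry is not stated. The 6 embryonic stem cell markers (Pou5f1, Sox2, Nanog, Zfp42, Esrrb and Dppa5a) were all at 18.9 FPKM or more in every group. Of these 6, 5 had higher values with treatment in the transgenic line and 6 in the other, with 3 and 0 at an unadjusted p under 0.05 and 0 called in either. Between the lines Nanog and Zfp42 were called higher and Sox2 lower in the transgenic line, untreated and treated alike, and their part in the host gene values was not tested. The summed FPKM of 6 fibroblast markers (Col1a1, Col1a2, Col3a1, Thy1, Pdgfrb and Lum) was 216 in treated and 213 in untreated transgenic cells. It was 162 in treated and 167 in untreated non-transgenic cells, and Lum stayed under 1 FPKM throughout.

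All 8 host genes were abundant, each at or above 83.5% of all entries in every group. Snhg1, the host of Snord22, was highest throughout. It was at 177 FPKM in treated and 188 FPKM in untreated transgenic cells, and at 185 FPKM in treated and 180.5 FPKM in untreated non-transgenic cells. These values lie within 1.06-fold of each other, the narrowest range of the 8 genes. Snhg3, which carries H/ACA snoRNAs in its introns, was at 106 FPKM in treated and 126.2 FPKM in untreated transgenic cells, and at 125.5 FPKM in treated and 117 FPKM in untreated non-transgenic cells. Snhg5, a host of C/D snoRNAs, was at 98.0 FPKM in treated and 119.9 FPKM in untreated transgenic cells, and at 105 FPKM in treated and 100.5 FPKM in untreated non-transgenic cells. Snhg3 and Snhg5 both had their highest value in untreated and their lowest in treated transgenic cells.

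Snhg6, the host of Snord87, was at 93.0 FPKM in treated and 98.8 FPKM in untreated transgenic cells, and at 135 FPKM in treated and 134 FPKM in untreated non-transgenic cells. It stood below Snhg3 and Snhg5 in both groups of the transgenic line and above them in both groups of the other. Snhg12, which holds Snora16a and Snora44 in its introns, was at 73.2 FPKM in treated and 90.3 FPKM in untreated transgenic cells, and at 93.5 FPKM in treated and 95.1 FPKM in untreated non-transgenic cells. The treated transgenic group was the low one.

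The lowest levels were those of Gas5, Snhg9 and Snhg8. Gas5 was at 53.0 FPKM in treated and 56.8 FPKM in untreated transgenic cells, and at 47.1 FPKM in treated and 43.9 FPKM in untreated non-transgenic cells. Both transgenic groups lay above both others. Snhg8, the host of Snora24, was at 32.7 FPKM in treated and 42.3 FPKM in untreated transgenic cells, and at 34.9 FPKM in treated and 36.7 FPKM in untreated non-transgenic cells. Apart from Snhg9, the highest group value of a gene was at most 1.46 times its lowest, in Snhg6. Values per library were not used here, so whether neighbours in this order differ beyond library spread was not tested.

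Snhg9 was at 57.5 FPKM in treated and 55.2 FPKM in untreated transgenic cells. In the non-transgenic line it was at 23.4 FPKM when treated and at 50.5 FPKM when untreated. So 3 of the 4 groups lay between 50.5 and 57.5 FPKM and 1 group lay apart, at the lowest value of any of the 8 genes.

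**Figure D1:**
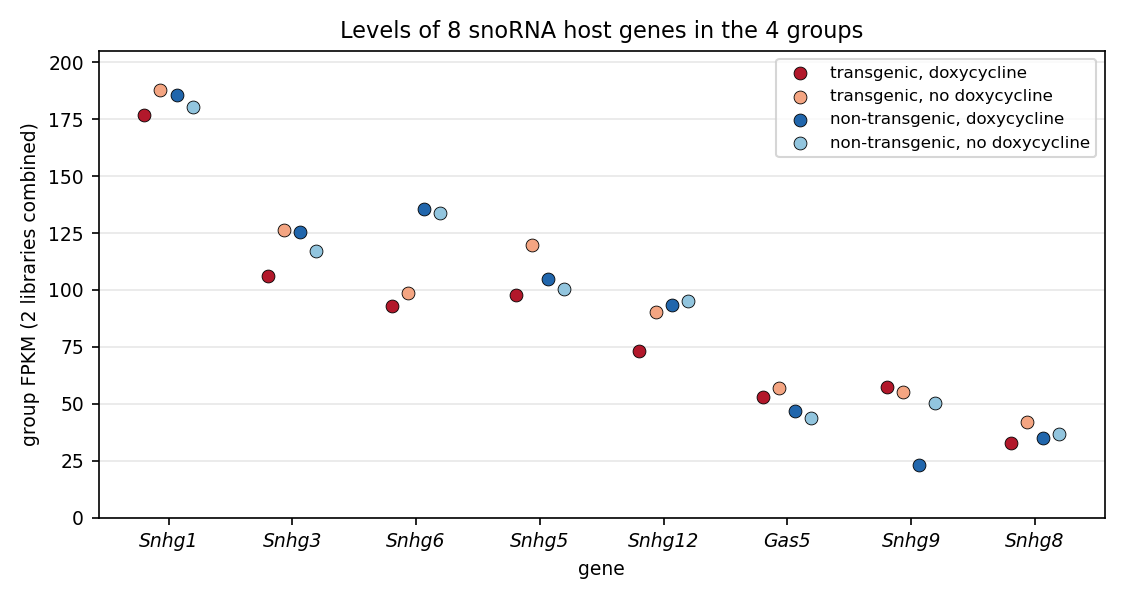
Group FPKM (vertical axis, linear from 0) of the 8 snoRNA host genes (horizontal axis, ordered by mean level) in the 4 groups, 1 point per group that combines 2 libraries, with no error available. Snhg9 in treated non-transgenic cells, at 23.4 FPKM, stands apart from its other 3 groups at 50.5 to 57.5 FPKM, and Snhg6 is lower in both transgenic groups than in both non-transgenic groups.

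The first comparison set treated against untreated transgenic cells, where doxycycline itself and any induction of the transgene cannot be told apart. In the transgenic line 7 of the 8 genes had a lower value with treatment and Snhg9 had a higher one, but none of these differences passed the authors' test. On the log2(FPKM + 1) scale the differences ran from -0.36 for Snhg8 to 0.06 for Snhg9, with a median of -0.17. Over 12288 genes at 1 FPKM or more in either group the median was 0.0010 and 49.6% lay below 0. A gene was called where a test was reported and its deposited q, a p adjusted over all tests, is under 0.05. Of 13003 tested genes 0.108% were called by that Cuffdiff-type test, 0.0923% as higher and 0.0154% as lower, and 0 of the 8 host genes were. An unadjusted p under 0.05 was found for 1.08% of all tested genes and for 0 of the 8. The smallest p of the 8 in the authors' deposited table were 0.125 for Snhg8 and 0.141 for Snhg5, each with a q of 1.00.

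Errors in the log2 units of the difference can be read from the deposited tests. Dividing the log2 ratio of FPKM by the normal quantile of the deposited p gave an error of 0.24 for Snhg8, whose log2 ratio was -0.37, and of 0.24 for Snhg12, whose log2 ratio was -0.30. It gave 0.20 for Snhg5 at a log2 ratio of -0.29 and 0.23 for Snhg3 at -0.25. The log2 ratios of Gas5, Snhg1 and Snhg6, at -0.10, -0.09 and -0.09, were smaller in size than their errors of 0.18, 0.22 and 0.26. These errors restate the p in log2 units and are no further test.

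The second comparison asked what doxycycline does where there is no transgene. The 7 genes other than Snhg9 had log2 ratios from -0.07 for Snhg8 to 0.10 for Gas5 and Snhg3, and the lowest p of these 7 in the authors' deposited table was 0.619. The median of the 8 genes was 0.03 on the log2(FPKM + 1) scale, beside 0.02 over 12239 genes. Snhg9 had the lowest value of the 8, with a log2 ratio of -1.11, which is a 2.16-fold lower FPKM in the treated group. The Cuffdiff-type test called 0% of 12908 tested genes, and 0 of the 8. An unadjusted p under 0.05 was found for 0.108% of all tested genes and for 0 of the 8.

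Set side by side, the log2(FPKM + 1) response of Snhg9 was 0.06 for transgenic and -1.08 for non-transgenic cells, a difference of 1.14. For each of the other 7 genes the transgenic response minus the other one was negative, from -0.10 for Snhg6 to -0.35 for Snhg5. These differences chose the genes or belong to the same contrast, and no test of them is given.

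The error of the Snhg9 ratio depends on which deposited column it is read from. In the second comparison the authors' deposited table gives Snhg9 a test statistic of -9.10, a p of 0.344 and a q of 1.00. The statistic implies an error of 0.12 on the log2 scale and the p an error of 1.17. Over the 4 comparisons the p of Snhg9 implied errors from 0.84 to 1.22 and its statistic errors from 0.08 to 0.12. For the other 7 genes the p implied errors from 0.18 to 0.27 and the statistic errors from 0.19 to 0.48. For Snhg9 the error from the p was 9.61 to 11.2 times that from the statistic.

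**Figure D2:**
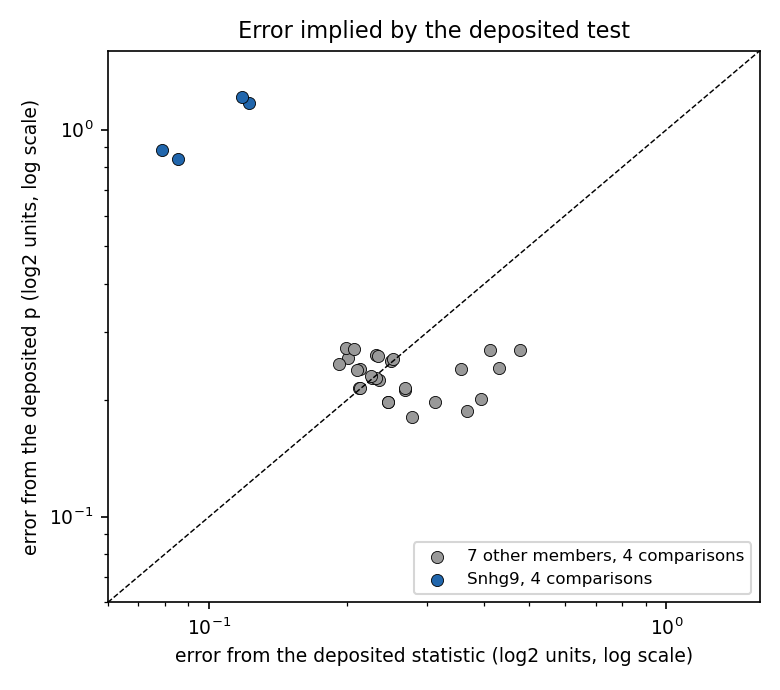
Error of each log2 ratio as implied by the deposited test statistic (horizontal, log scale) and by the deposited p (vertical, log scale), 1 point per gene and comparison, with the dashed line where they are equal. The 28 points of the other 7 genes lie at 0.19 to 0.48 by the statistic and 0.18 to 0.27 by the p, and the 4 points of Snhg9 lie at 0.08 to 0.12 and 0.84 to 1.22.

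Short entries, a class that reaches to lengths above that of Snhg9, varied more widely than long ones in this comparison. There were 142 entries whose longest spliced form has 500 bases or less and which were at 1 FPKM or more in both non-transgenic groups. Of these, 22 differed by 1 or more on the log2(FPKM + 1) scale, Snhg9 among them, and of 11566 longer entries 0 did. The median absolute difference was 0.26 in the short class and 0.07 in the longer one. Among tested entries, a statistic beyond 1.96 in size with a p of 0.05 or more was found for 22 of 137 short ones (16.1%) and 21 of 12600 longer ones (0.167%). In the transgenic line 24 of 151 short and 4 of 11587 longer entries differed by 1 or more. The part of transcript length in the low value of Snhg9 was not tested.

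**Figure D3:**
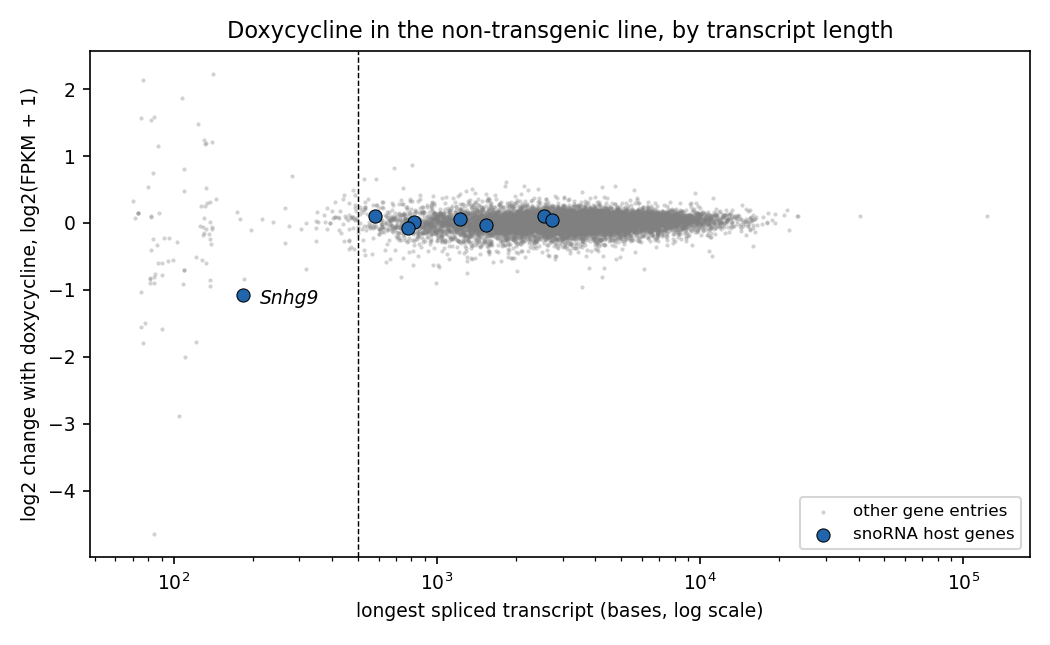
Difference between treated and untreated non-transgenic cells on the log2(FPKM + 1) scale (vertical) against the longest spliced transcript in bases (horizontal, log scale), 1 point per gene entry at 1 FPKM or more in both groups, with the dashed line at 500 bases. Snhg9, at 183 bases and -1.08, lies in the spread of the short entries, and the 7 other host genes lie between -0.07 and 0.10.

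The neighbour Rps2, which encodes a small-subunit ribosomal protein, was at 3371 FPKM in treated and 3569 FPKM in untreated non-transgenic cells, and at 3936 FPKM in treated and 3943 FPKM in untreated transgenic cells. Its log2 ratios were -0.08 and -0.0026. Snora78, the snoRNA inside the Snhg9 intron, was at 72.8 FPKM in treated and 107 FPKM in untreated non-transgenic cells, and at 90.4 FPKM in treated and 75.9 FPKM in untreated transgenic cells. Like its host, Snora78 had its lowest value in treated non-transgenic cells, though close to that in untreated transgenic cells. Unlike its host, it had its highest value in untreated non-transgenic cells. The log2 ratio of Snora78 with treatment in the non-transgenic line was -0.56, and the authors' deposited table gives p = 0.486. That p implies an error of 0.80 on the log2 scale. Slc3a2, an amino acid transporter gene whose entry ends 117 bases from Snhg1 on the other strand, was between 81.6 and 96.1 FPKM. Rcc1, which lies 6182 bases from Snhg3, was lowest in treated transgenic cells, at 89.8 FPKM. Of 17 overlapping or nearest entries of the 8 genes 11 were tested, each in all 4 comparisons, and 0 of these were called, beside shares of 0% to 1.52% of all tested genes. The other 6 had no test.

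Among 11604 genes at 1 FPKM or more in all 4 groups, the 3 whose centred log2(FPKM + 1) values lay nearest to those of Snhg9 by Euclidean distance were Snora52 (distance 0.20), H2-Q10 (0.36) and Snora21 (0.39). Snora52, a snoRNA gene of 137 bases, was at 97.7 FPKM in treated and 189 FPKM in untreated non-transgenic cells. Snora21, also of 137 bases, was at 22.0 FPKM in treated and 40.4 FPKM in untreated ones. H2-Q10, a class I histocompatibility gene, was at 1.25 FPKM in treated and 2.60 FPKM in untreated ones. With treatment in the non-transgenic line their log2 ratios were -0.95 (Snora52), -0.88 (Snora21) and -1.06 (H2-Q10). The errors of these ratios as read from the p were 2.26, 0.65 and 0.61 in that order. As read from the statistic they were 7.75, 11.9 and 0.53. The likeness rests on 4 group values, and none of these 3 genes was called in any of the 4 comparisons.

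The last comparisons set the lines against each other, untreated and treated. They share no library with each other, but each shares its groups with the comparisons of treatment. Snhg6 was the lower in the transgenic line in both. Its log2 ratio was -0.44 untreated and -0.54 treated, at errors of 0.25 and 0.27 as read from the p. In the authors' deposited table its p was 0.0793 untreated and 0.0461 treated, with q of 1.00 and 0.931, so it was not called. Its non-transgenic level was 1.35-fold (untreated) and 1.46-fold (treated) its transgenic level.

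Gas5 had a higher value in the transgenic line in both comparisons, with log2 ratios of 0.37 untreated and 0.17 treated. Its errors as read from the p were 0.19 and 0.20. In the authors' deposited table its p was 0.0471 untreated, with a q of 0.938, and 0.389 treated, so it was not called. Read from the statistic instead, the errors untreated and treated were 0.37 and 0.31 for Gas5, and 0.19 and 0.21 for Snhg6. Snhg12 had log2 ratios of -0.07 untreated and -0.35 treated, the second with p = 0.174 in the authors' deposited table. Snhg3, Snhg5, Snhg8 and Snhg1 were above 0 untreated, at 0.11, 0.25, 0.20 and 0.06, and below 0 treated, at -0.24, -0.10, -0.09 and -0.07. Snhg9 was at 0.13 untreated and at 1.30 treated, and the second value holds the same low group as above.

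Of 13047 tested genes 1.37% were called untreated, 0.797% as higher and 0.575% as lower in the transgenic line. Of 13064 tested genes 1.52% were called treated, 0.857% as higher and 0.666% as lower. Of the 8 host genes 0 were called in either by the Cuffdiff-type test. An unadjusted p under 0.05 was found for 1 gene of the 8 in each (Gas5 untreated and Snhg6 treated), beside 6.59% and 7.9% of all tested genes. The medians of the 8 genes were 0.12 untreated and -0.09 treated on the log2(FPKM + 1) scale, beside -0.0020 and -0.02 over 12360 and 12370 genes. The fibroblast marker sums given above were also higher in the transgenic line, with Col1a1 at 140 FPKM treated and 132 FPKM untreated there and at 86.8 FPKM treated and 92.8 FPKM untreated in the other line. Most of that gap is Col1a1: of the 6 markers 5 untreated and 4 treated lay above 0, and Thy1 was lower in the transgenic line in both, at 25.3 against 26.9 FPKM treated and 25.7 against 25.9 FPKM untreated. None of the 5 tested markers was called, and 1 of the 5 had an unadjusted p under 0.05 in each comparison of the lines. The part of these markers, and of the called Nanog, Zfp42 and Sox2, in the values of Snhg6 and Gas5 was not tested. Zfp42 was at 88.3 FPKM treated and 58.8 FPKM untreated in the transgenic line and at 20.1 FPKM treated and 18.9 FPKM untreated in the other.

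**Figure D4:**
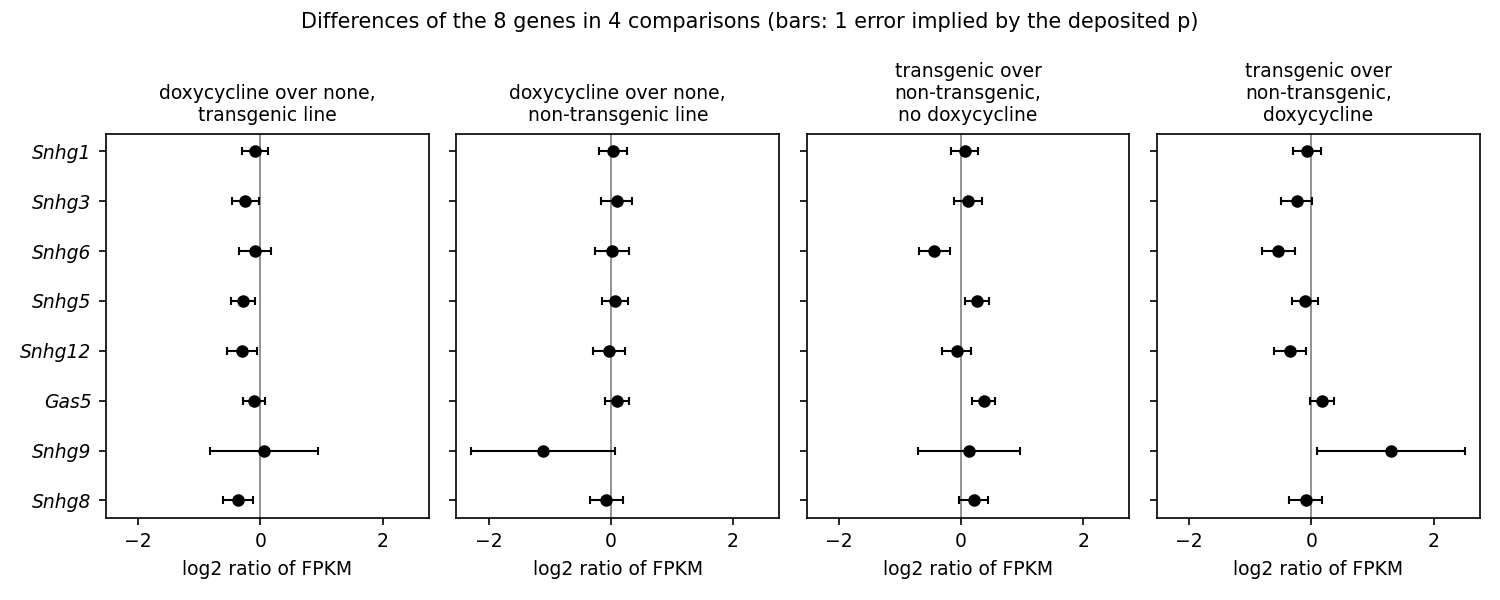
Log2 ratio of group FPKM (horizontal) of the 8 host genes (vertical) in the 4 comparisons, with bars of 1 error to either side as implied by the deposited p. Snhg9 has the longest bars in every panel, Snhg6 lies below 0 at -0.44 and -0.54 in both comparisons of the lines, and 0 of the 32 ratios were called.

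The snoRNAs inside these genes were looked up as entries of their own, which 9 of 29 listed ones had. They are 56 to 157 bases long in RefSeq, in the short class above, and the reads had 75 bases. Of the 9, 5 were above 0 in all groups and Snora24 was listed at 0 in 3. Snord47, Snora61 and Snord99, of 65, 62 and 56 bases and so shorter than the reads, were listed at 0 in all 4. Snord22 was between 1211 and 1286 FPKM in all groups, a narrow range like that of its host Snhg1. The p of Snord22 in the 4 comparisons implied errors from 0.85 to 0.97, and this likeness was not tested. Snord87, of 74 bases, is also shorter than the reads. It was at 3268 FPKM in treated non-transgenic cells and between 4939 and 6077 FPKM elsewhere. Its p in the 4 comparisons implied errors from 2.01 to 2.78 on the log2 scale, so its order is not compared with that of its host Snhg6. Snora16a, from the host Snhg12, was at 176 FPKM in treated transgenic cells and between 255 and 260.5 FPKM elsewhere. Its p in the 4 comparisons implied errors from 0.75 to 1.59 on the log2 scale and its statistic errors from 0.07 to 0.08. So its order is not compared with that of its host either. Snora44, from the same host, was at 300.1 FPKM in untreated transgenic cells and between 176 and 183 FPKM elsewhere. The 5 above 0 in all groups were tested in all 4 comparisons and 0 of them were called, beside 0% to 1.52% of all tested genes, and the other 4 had no test.

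The machinery around these genes was described by lists, some of which share members. The 8 core snoRNP proteins in the table, among them the methyltransferase Fbl and the H/ACA protein Nhp2, all had lower values with treatment in the transgenic line (8 of 8, median -0.08), beside the 49.6% of all genes given above. There Fbl was at 438 FPKM treated and 441 FPKM untreated and Nhp2 at 379 and 385 FPKM. Of 12 assembly factors 11 lay below 0 (median -0.06). Ruvbl2, an ATPase of the assembly complex, was at 240 FPKM treated and 251 FPKM untreated, and the nucleolar chaperone Nolc1 at 123 and 127 FPKM. In the non-transgenic line 3 of the 8 core proteins and 4 of the 12 assembly factors lay below 0, beside 42.0% of all genes. Between the treated lines 11 of the 12 assembly factors were lower in the transgenic one (median -0.17), beside 53.8% of all genes, and between the untreated lines 7 of 12 were (median -0.03), beside 50.5%. Of the 8 core proteins 6 were lower treated (median -0.09) and 2 untreated (median 0.04). No member of either list was called in any comparison or had an unadjusted p under 0.05.

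Protein-coding hosts, many of them ribosomal protein genes, had a median of -0.01 over 46 genes in the transgenic line and 0.03 in the other. Between the untreated lines 35 of the 46 lay above 0 (median 0.03), beside 49.5% of all genes. Between the treated lines 23 of the 46 did (median -0.01), beside 46.2%. The highest were Rps12, at 6172 FPKM treated and 6107 FPKM untreated in the transgenic line, and Rpl23a, at 5134 and 5060 FPKM. The 12 nonsense-mediated decay factors had medians of 0.0015 and 0.04. Between the lines 6 of the 12 lay below 0 untreated (median -0.01) and 9 treated (median -0.06), beside 50.5% and 53.8% of all genes. The exon junction proteins Magoh and Eif4a3 were at 236 and 209 FPKM in treated and at 258 and 214 FPKM in untreated transgenic cells. The 18 terminal oligopyrimidine genes outside the ribosome had medians of -0.03 and 0.02, and 16 of the 18 lay above 0 between the untreated lines (median 0.06), beside 49.5% of all genes. Between the treated lines 10 of the 18 lay above 0 (median 0.02), beside 46.2% of all genes. The elongation factor gene Eef1a1 was at 7481 FPKM and the nucleolar chaperone Npm1 at 2863 FPKM in treated transgenic cells. No member of these 3 lists was called in any of the 4 comparisons.

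Of 5 other noncoding hosts in the table, Rian alone was called. This maternally expressed RNA of the Dlk1-Dio3 imprinted locus holds an array of C/D snoRNAs. Rian was at 47.5 FPKM treated and 48.3 FPKM untreated in the transgenic line, and at 129 FPKM treated and 115 FPKM untreated in the non-transgenic line. It was lower in the transgenic line by log2 ratios of -1.44 treated and -1.26 untreated, each with a q of 0.00812 in the authors' deposited table. Snhg4, the next in level, was at 19.7 FPKM treated and 23.8 FPKM untreated in the transgenic line and at 20.3 and 19.5 FPKM in the other. The remaining 3, Snhg7, Snhg10 and Snhg11, were not called. With treatment 4 of the 5 other noncoding hosts lay below 0 in the transgenic line (median -0.25), beside 49.6% of all genes. In the non-transgenic line 4 of the 5 lay above 0 (median 0.12), beside 58.0%. Between the lines 4 of the 5 lay above 0 untreated (median 0.10) and 1 treated (median -0.04), beside 49.5% and 46.2%.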

How the data were processed

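Total RNA of 8 libraries was sequenced as 75-base single-end reads, per the labels' protocols. The submitters' processing notes list TopHat2 2.0.8, Cufflinks 2.1.1 and build mm10. Their annotation, strand setting and normalization are not stated in any source used here. The authors deposited FPKM values, 1 per gene and group, for 23284 entries in 6 pairwise comparisons, and 4 of these were used. The test statistic is a deposited score without a fixed range. Every deposited p-value is 5e-05 or more, and each deposited q-value lay within 5.21e-07 of a Benjamini-Hochberg adjustment over all 78127 tests. How these p-values take account of the spread between the 2 libraries of a group is not stated in any source used here. That spread may be in part technical. Columns were joined to groups by the start of the sample titles, per the labels. Genes were called where the deposited status is that of a completed Cuffdiff-type test and the deposited q-value is under 0.05.

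Log2 ratios were computed from the deposited FPKM, and list medians with a pseudocount of 1 FPKM. The error implied by the statistic is the log2 ratio over the statistic, and the error implied by the p is the log2 ratio over its normal quantile, both assuming a normal test. Spliced lengths came from GENCODE M21 (GRCm38) by symbol or RefSeq synonym, for 97.7% of entries. The 8 genes and all lists were chosen with earlier results of these data known. The length limit of 500 bases, the promoter words and the implied errors were chosen after the values were seen, and so were Snhg7, Snhg10 and Snhg11 as names. Otherwise the genes named are the 8 hosts, their snoRNAs and nearest entries, the targeted gene and cell type markers, the 3 genes nearest to Snhg9, and from each list the called members and the 2 of highest mean FPKM. Python 3.11.15, pandas 2.3.3, numpy 2.4.6, scipy 1.17.1 and matplotlib 3.10.9 were used, and the computations were tested on simulated data. Other thresholds, pseudocounts, level minimums and scalings were tried as alternatives.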

Additional observations from a re-analysis of the deposited data

How the results depend on the processing

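Of the 8 host genes 0 were called in each of the 4 comparisons, also with p adjusted within each comparison alone and at a q threshold of 0.1. The medians and the single log2 changes kept their sign and moved by less than 0.1 with a pseudocount of 0.1 or none and with rescaling to equal FPKM sums over all entries or those over 200 bases. For the medians of the 4 comparisons alone the same held with centring on all genes and, added after seeing the data, leaving out Snhg9. Minimum levels of 1 and 5 FPKM removed no host gene, so they could not change these medians. The largest move was 0.07, where the median in the transgenic line went from -0.17 to -0.24 without Snhg9, and it was 0.04 under the others. No library was left out, because both libraries of a group share 1 value. No paired analysis was possible for the same reason, and the deposited values carry no experiment number. Depth is unknown.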
